A study of Homo sapiens with 4 samples.

Results

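The GATA factors are transcription factors with zinc fingers that recognise the DNA sequence GATA, and this is an account of the acetylation of histone H3 at lysine 27 (H3K27ac) at the autosomal members of the family in 4 cancer cell lines. The members, GATA2, GATA3, GATA4, GATA5 and GATA6, are 5 of the 19222 autosomal protein-coding genes in GENCODE on hg19. The rule takes them by name and uses no measured value, although the family was picked with earlier results of these data known. A peak was assigned to a member when it overlapped 1 kb either side of any of its transcript starts (a promoter peak) or, failing that, when it overlapped the gene body or 100 kb either side of it (a distal peak). By this rule 261 of the 251138 peaks in the 4 lists belonged to the GATA genes, namely 86 of 76093 in OVCAR-3, 6 of 14001 in SKOV-3, 90 of 85576 in COLO-205 and 79 of 75468 in DU-145.

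The study profiled H3K27ac, a mark of active promoters and enhancers, to look for regulatory mutations in cancer cells. COLO-205 is a colon cancer line grown in RPMI with fetal bovine serum (FBS), and DU-145 is a prostate cancer line grown in Eagle minimal essential medium with FBS. OVCAR-3 and SKOV-3 are ovarian cancer lines, grown in RPMI 1640 with FBS and in McCoy's 5a medium with FBS. The lines carry no introduced allele and received no treatment in the labels. All 4 were processed alike, from 20000000 cells with the antibody ab4729, and each gave 1 library, so line, medium and library cannot be told apart. There was no replicate error and no test between lines, and every interval below covers counting error alone.

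Mammals have 6 GATA factors, of which the X-linked GATA1 lies outside the rule. GATA2 and GATA3 are best known in blood and lymphoid cells, with further roles of GATA2 in prostate and endothelium and of GATA3 in luminal epithelium of breast and bladder. GATA4, GATA5 and GATA6 act in heart and in organs derived from endoderm, and GATA6 is widely used as a marker of gut and pancreatic epithelium. GATA factors frequently bind regulatory sites at their own genes and at those of other family members.

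The lists were unequal in depth. The number of ChIP tags, worked out from the background values of each list, was between 22400000 in SKOV-3 and 36000000 in DU-145. At least 1 promoter peak was found for 61.5% of all autosomal protein-coding genes in OVCAR-3, 32.4% in SKOV-3, 62% in DU-145 and 52.9% in COLO-205. The labelled tissues were checked against marker genes. Of 8 colon markers COLO-205 had promoter peaks at 4, including CDX2 and VIL1, which were unmarked in the other lines, and had none at CDX1, CDH17, KRT20 and CEACAM5. Of 6 prostate luminal markers DU-145 had peaks at 2, among them TMPRSS2, and none at KLK3, KLK2, HOXB13 and FOLH1, so most of the defining markers of prostate luminal cells were unmarked there. The colon line had peaks at 3 of these 6 (KLK3, KLK2 and TMPRSS2) and OVCAR-3 at 2, so this list did not single out the prostate line. Of 8 ovarian and Mullerian markers OVCAR-3 had peaks at 7 and SKOV-3 at 4, with PAX8, SOX17 and MECOM marked in both, but DU-145 also had peaks at 5 of the 8, more than SKOV-3, and COLO-205 at 3, PAX8 and MECOM being marked in all lines. Of 4 epithelial markers SKOV-3 had peaks at KRT8 and KRT18 and none at EPCAM and CDH1, and the other lines had peaks at all 4. No line had a promoter peak at any of 4 blood markers. Fibroblast markers had peaks at 2 of 4 in COLO-205 and DU-145 and at 1 of 4 in each ovarian line.

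The promoters of the GATA genes were marked in different sets of lines. GATA6 had a promoter peak in all 4 lines, GATA2 in COLO-205, DU-145 and OVCAR-3, GATA3 in COLO-205 and DU-145, GATA5 in COLO-205 and OVCAR-3, and GATA4 in no line. Thus 3 of the 5 genes were marked in OVCAR-3, 1 in SKOV-3, 3 in DU-145 and 4 in COLO-205, beside the shares of all genes given above. Peaks in all 4 lines, as at GATA6, were found at 26% of all autosomal protein-coding genes, and peaks in no line, as at GATA4, at 23.4%. The exact pattern of GATA2 was shared by 13.5% of genes, and those of GATA3 and of GATA5 by 2.73% each.

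The strength of a promoter peak was read at its summit as the number of overlapping ChIP fragments per 1000000 ChIP tags (RPM), with an exact Poisson 95% interval, for the promoter peak of highest −log10 q in each line (q being the peak caller's p-value after adjustment for multiple tests). GATA2 had the higher values in COLO-205, DU-145 and OVCAR-3 beside GATA3 and GATA5, GATA6 in OVCAR-3 was as low as GATA5, and most intervals between lines overlapped. At GATA2 the strongest promoter peak reached 1.81 RPM in COLO-205 (1.36 to 2.36), 1.86 in DU-145 (1.44 to 2.36) and 1.29 in OVCAR-3 (0.935 to 1.73). The line order at this gene cannot be read from these values, since all 3 intervals overlap. At GATA6 the values were 0.819 in OVCAR-3 (0.544 to 1.18), 1.34 in SKOV-3 (0.904 to 1.91), 1.42 in DU-145 (1.05 to 1.86) and 1.38 in COLO-205 (0.987 to 1.87). Of the 11 pairs of lines that could be compared over all genes, the interval of the ratio lay above 1 in 2, both at GATA6. These were DU-145 over OVCAR-3, with a ratio of 1.73 (1.07 to 2.85), and COLO-205 over OVCAR-3, with 1.68 (1.01 to 2.82). By fold enrichment in place of RPM the first of these was near 1, with a log2 ratio of 0.088 in place of 0.79, whereas the log2 ratio of COLO-205 over OVCAR-3 stayed at 0.77. The peaks compared do not lie at 1 place, since the strongest peak of OVCAR-3 was upstream of the start. At the place where the peaks of all lines met, a comparison added after the values were seen, the ratios over OVCAR-3 were 1.61 (1.01 to 2.63) for DU-145 and 1.61 (0.982 to 2.66) for COLO-205. No interval was adjusted for the number of pairs.

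**Figure D1:**
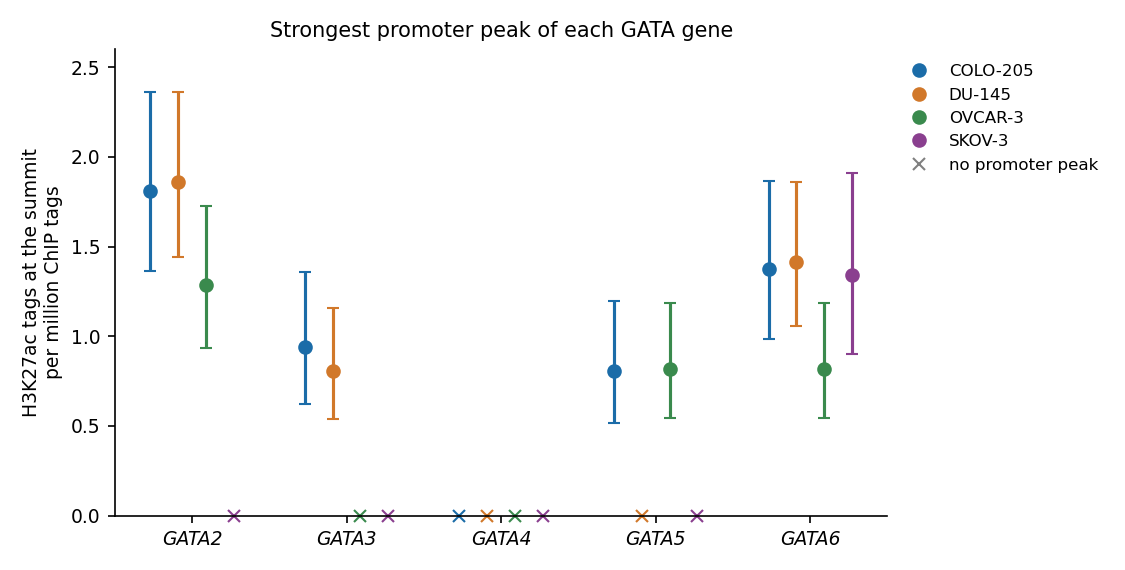
Signal at the summit of the strongest promoter peak (vertical axis, RPM, H3K27ac tags per 1000000 ChIP tags) for each GATA gene (horizontal axis) in each line. Points are single libraries, bars are exact Poisson 95% intervals, and a cross at the axis means that no promoter peak was listed, not a measured value of 0. GATA4 has 4 crosses, and GATA6 has a point in every line, lowest in OVCAR-3 at 0.819.

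Among marked genes the GATA promoters ranked low in DU-145 and in the ovarian lines. The strongest promoter peak of GATA2 was exceeded, by −log10 q, at 23.1% of the marked genes in COLO-205, 78.7% in DU-145 and 85.2% in OVCAR-3. For GATA6 the shares were 95.5% in OVCAR-3, 72.1% in SKOV-3, 71.5% in DU-145 and 26.5% in COLO-205. COLO-205 was therefore the line in which these promoters ranked higher within their own library. GATA3 was exceeded at 49.8% of marked genes in COLO-205 and 91.6% in DU-145, and GATA5 at 91.4% in COLO-205 and 93.6% in OVCAR-3. When each list was cut to its 14001 strongest peaks, the length of the SKOV-3 list, GATA2 and GATA6 stayed marked in COLO-205 and GATA6 in SKOV-3, and no GATA promoter was marked in DU-145 or OVCAR-3.

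GATA6, a regulator of endoderm development, lies on chromosome 18 (chr18:19749550-19782491, plus strand, ENSG00000141448) and has 2 annotated starts, 1344 bp apart. The promoter peaks of all 4 lines overlapped in an interval of 198 bp, chr18:19749667-19749864, just after the first start, in an intron of GATA6 and an exon of the divergent lncRNA GATA6-AS1. The summits of the ovarian lines lay 201 bp (OVCAR-3) and 210 bp (SKOV-3) after the first start, those of DU-145 and COLO-205 104 and 159 bp after it. The summit signals were 0.877 RPM in OVCAR-3 (0.592 to 1.25), 1.34 in SKOV-3, 1.42 in DU-145 and 1.41 in COLO-205 (1.02 to 1.91). The fold enrichment over the local background was 3.14 in OVCAR-3 (−log10 q 6.12), 4.68 in SKOV-3 (9.74), 4.07 in DU-145 (14.5) and 4.83 in COLO-205 (14.4). The ratio of DU-145 over OVCAR-3 given above was the only one at this interval whose counting interval lay above 1.

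The sequence under the SKOV-3 peak is shown from the start of the shared interval (chr18:19749667-19749909, hg19, plus strand, 243 bases) because it carries 3 copies of the GATA motif AGATAA within 33 bases. In capitals are the copies, which read TTATCT on this strand.
GATA6 promoter: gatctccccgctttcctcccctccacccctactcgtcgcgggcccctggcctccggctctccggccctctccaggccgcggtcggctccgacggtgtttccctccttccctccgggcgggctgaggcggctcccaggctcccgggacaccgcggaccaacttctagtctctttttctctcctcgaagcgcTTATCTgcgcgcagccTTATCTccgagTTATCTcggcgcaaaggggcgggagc
The copies begin 307, 323 and 334 bp after the first start, and the nearest is 97 bp from the SKOV-3 summit. All 3 lie inside the peaks of DU-145 and SKOV-3, whereas the peaks of COLO-205 and OVCAR-3 end within the group and hold 1 copy. A window of 150 bp either side of a summit held at least 3 copies, on both strands together, in 3 of 13741 autosomal SKOV-3 peaks (0.0218%) and 9 of 74970 in OVCAR-3 (0.0120%), GATA6 being among them in both. This feature was picked after the sequences were seen. A match is a description of the letters, and binding was not measured.

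**Figure D2:**
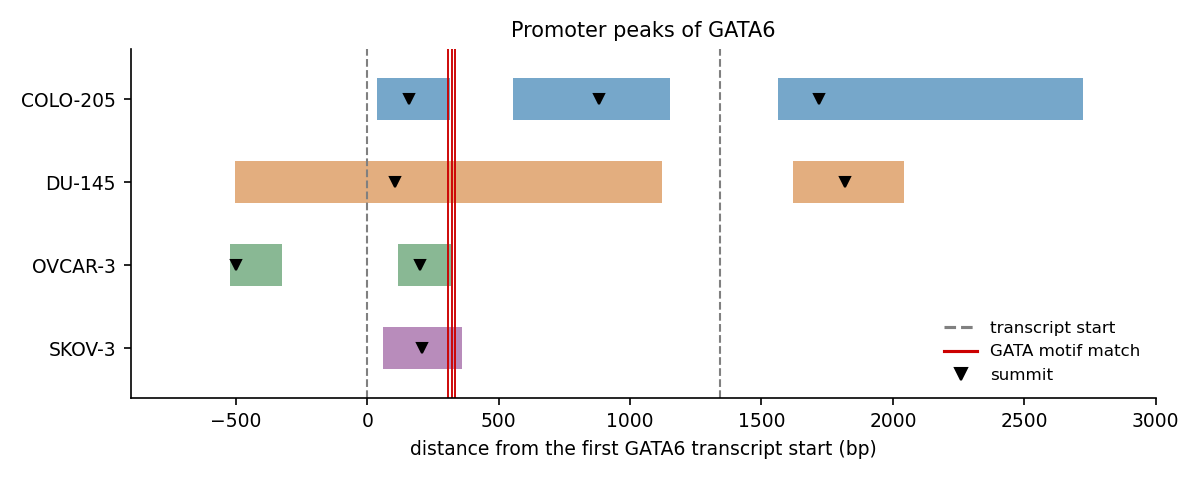
Promoter peaks of GATA6 in the 4 lines (rows), drawn to scale by distance from the first transcript start (horizontal axis, bp). Bars are peaks, triangles summits, dashed lines the annotated starts and red lines the 3 motif copies, which begin 307, 323 and 334 bp after the first start. All 3 fall inside a peak of DU-145 and of SKOV-3, and only the first inside a peak of COLO-205 and of OVCAR-3.

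A further promoter region, chr18:19751111-19752271, lay after the other start and was marked in COLO-205 and DU-145 alone, with both summits in an exon. In COLO-205 it was the promoter peak of highest −log10 q, with a fold of 6.50, a −log10 q of 19.2 and a summit 1.72 kb after the first start. The DU-145 peak there had a fold of 3.57, a −log10 q of 7.62 and 0.861 RPM (0.585 to 1.22), an interval that overlaps that of COLO-205. OVCAR-3 had instead a peak of 200 bp with its summit 500 bp upstream of the first start, with a fold of 3.83 and a −log10 q of 7.77.

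Away from its promoter, GATA6 was marked mainly in DU-145. The list of DU-145 held 25 distal peaks, 11 upstream, 3 in the gene body and 11 downstream, COLO-205 held 2, and OVCAR-3 and SKOV-3 held none. Of these 27, 26 had a GATA6 start as the nearest start of a protein-coding gene. None of the 27 overlapped a peak of another line, where 24.5% of all DU-145 peaks and 15.1% of all COLO-205 peaks away from starts did. Little overlap was possible for the DU-145 peaks, as COLO-205 held 2 distal peaks here and the ovarian lines none. Nothing is therefore read from its absence. The DU-145 peaks were low and even, from 0.444 to 0.833 RPM (median 0.556), and the strongest lay 45.8 kb after the first start in an intron of the unnamed gene ENSG00000264825, with a fold of 6.80 and a −log10 q of 15.6. At a −log10 q of 10 or more 7 of the 25 were left, and none was among the 14001 strongest peaks of DU-145. In RPM the strongest reached 0.588 times the strongest promoter peak of the same library (0.362 to 0.941). The median gene of all autosomes had 8 distal peaks in DU-145 and 16.9% of genes had more than GATA6. However, chromosome 18 was densely covered in DU-145, at 1.84 times the peaks per Mb of the median autosome, and 34.6% of the 266 genes of chromosome 18 had more distal peaks there. In COLO-205 the chromosome was at 0.143 times the median autosome, the lowest of the 22. The part of these chromosome densities in the GATA6 counts was not tested.

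**Figure D3:**
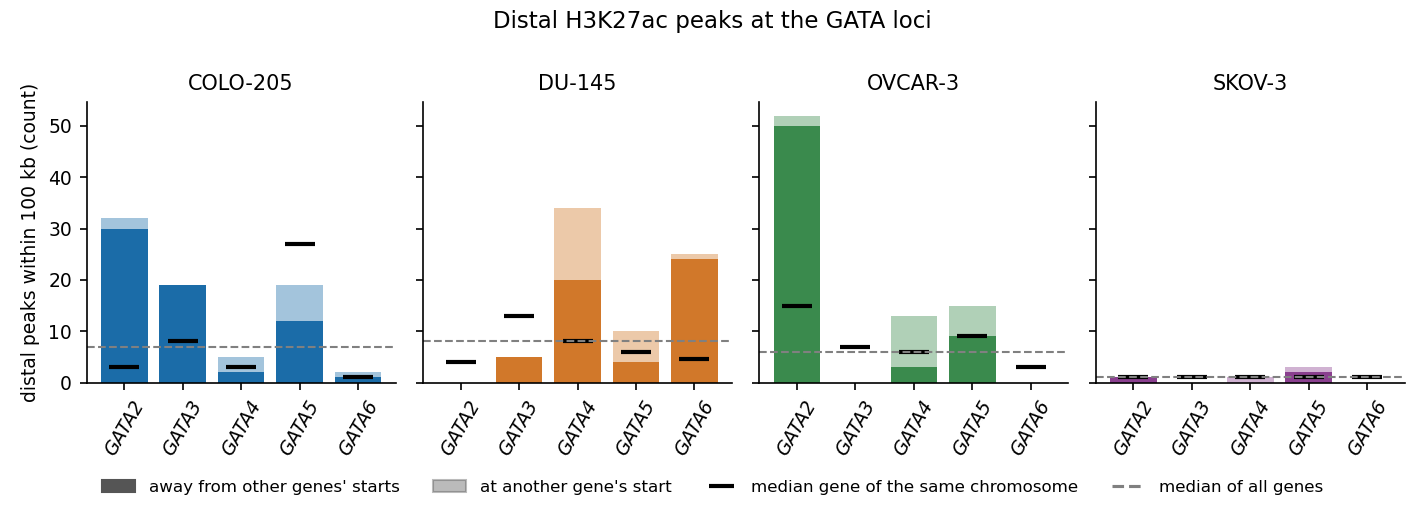
Number of distal peaks within 100 kb (vertical axis) for each GATA gene (horizontal axis), with 1 panel per line. Solid bars are peaks away from the starts of other genes, pale bars those at such a start, black marks the median gene of the same chromosome, and dashed lines the median of all genes. The tallest bar is GATA2 in OVCAR-3 with 52 peaks, and the next are GATA4 in DU-145 with 34 and GATA2 in COLO-205 with 32.

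GATA2, a regulator of blood stem cells, lies on chromosome 3 (chr3:128198270-128212044, minus strand, ENSG00000179348) and has 10 annotated starts. In COLO-205 it had 5 promoter peaks with folds from 3.17 to 5.43, in DU-145 2 with folds of 2.58 and 2.98, and in OVCAR-3 3 with folds from 3.01 to 4.26. Near a start of the antisense lncRNA GATA2-AS1 the peaks of all 3 lines overlapped in 311 bp. The strongest peaks had a −log10 q of 20.8 in COLO-205, 12.1 in DU-145 and 13.6 in OVCAR-3. OVCAR-3 alone had a peak at the first start of the gene, with its summit 144 bp inside the gene, a fold of 3.49 and a −log10 q of 7.25. SKOV-3 had no promoter peak.

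The first 300 bases of the interval shared by the 3 lines (chr3:128208032-128208331, hg19, plus strand, in exonic sequence of GATA2-AS1) are shown as the common promoter sequence, in lower case throughout because AGATAA occurs on neither strand.
GATA2 promoter: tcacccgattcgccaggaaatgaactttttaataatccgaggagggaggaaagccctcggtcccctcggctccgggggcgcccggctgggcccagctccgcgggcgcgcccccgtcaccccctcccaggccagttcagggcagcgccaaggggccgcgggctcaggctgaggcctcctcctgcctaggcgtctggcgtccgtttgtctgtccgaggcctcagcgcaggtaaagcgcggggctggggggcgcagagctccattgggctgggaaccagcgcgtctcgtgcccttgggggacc
It is 70% G and C and holds 27 CG dinucleotides, close to the 67.9% of the GATA6 promoter sequence shown above.

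The number of distal peaks at GATA2 differed between the lists. OVCAR-3 had 52 distal peaks, COLO-205 32, SKOV-3 1 and DU-145 none, although the promoter of DU-145 was marked, with about the RPM of COLO-205 but a lower fold. These peaks were weak: at a −log10 q of 10 or more 13 were left in OVCAR-3, 3 in COLO-205 and 0 in SKOV-3, and among the 14001 strongest peaks of each list none in OVCAR-3 or COLO-205 and the 1 in SKOV-3. The median gene had 6 distal peaks in OVCAR-3 and 7 in COLO-205, and 4.73% and 10.2% of all genes had more than GATA2 in these lines. On chromosome 3 alone, 11.6% of 1083 genes had more in OVCAR-3 and 7.20% in COLO-205. Chromosome 3 held 2.14 times the peak density of the median autosome in OVCAR-3, 0.610 times in COLO-205, 0.519 times in DU-145 and 0.642 times in SKOV-3, and the part of this density in the counts was not tested. Of the 85 distal peaks, 81 were away from the starts of other genes, 53 were intergenic at their summit, and 32 had a GATA2 start as the nearest start of a protein-coding gene.

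Of 69 distal regions at GATA2 15 were marked in more than 1 line, and each of the 15 was marked in COLO-205 and OVCAR-3. This pairing was nearly fixed in advance, since DU-145 had no distal peak here and SKOV-3 had 1. The 15 regions lay on both sides of the gene, 8 upstream of the first start and 7 downstream. At the 13 regions away from other starts the summits of both lines were between 7 and 243 bp apart, with a median of 124 bp. These regions were taken because the peaks of both lines overlap, so short distances between summits follow from that choice. Counted by peaks, 13 of the 30 COLO-205 peaks away from other starts overlapped an OVCAR-3 peak (43.3%, exact Clopper-Pearson 95% interval 25.5% to 62.6%), beside 9.62% of all such COLO-205 peaks and 32.9% of those on chromosome 3. In the other direction 13 of 50 OVCAR-3 peaks overlapped a COLO-205 peak (26.0%, 14.6% to 40.3%), beside 11.3% of all and 9.48% of those on chromosome 3. The chromosome 3 share lies inside the first interval and below the second. Neighbouring peaks of 1 locus are not independent, so these intervals are too narrow for the locus as a unit.

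The only distal GATA2 site marked in 3 lines lay at −56.4 kb (negative distances are upstream of the first start), in intergenic sequence. In OVCAR-3 it was the strongest distal peak of the gene, at 1.81 RPM (1.39 to 2.32) with a fold of 6.60 and a −log10 q of 29.5. In SKOV-3 it was the sole peak of the locus, at 1.12 (0.722 to 1.65) with a fold of 4.37 and a −log10 q of 7.48, and its summit at position 128268460 was 1 bp from the OVCAR-3 summit. In COLO-205 it reached 0.940 (0.624 to 1.36) with a fold of 3.02 and a −log10 q of 5.26. Both ovarian lines thus had their summit at the same place, and DU-145 had no peak. Of all SKOV-3 peaks away from starts, 40.2% overlapped an OVCAR-3 peak, and of those on chromosome 3, 41.5% did. In OVCAR-3 the site was 1.41 times as high as the strongest promoter peak of the gene (0.942 to 2.12), an interval that includes 1, whereas in COLO-205 the strongest distal peak that lay away from other starts and had GATA2 as nearest protein-coding start, at −9.74 kb in an exon of GATA2-AS1, was 0.556 times as high as its promoter peak (0.343 to 0.884).

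The 164 bases under the peaks of all 3 lines (chr3:128268339-128268502, hg19, plus strand) are shown as the shared upstream site. They hold no AGATAA on either strand.
GATA2 upstream: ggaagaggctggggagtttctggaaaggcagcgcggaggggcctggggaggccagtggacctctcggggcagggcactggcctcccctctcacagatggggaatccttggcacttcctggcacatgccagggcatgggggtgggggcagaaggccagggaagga

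The GATA2 locus of OVCAR-3 also held 3 peaks with AGATAA near the summit, all of them upstream and none at the 3-line site. They are shown with 20 bases on either side, read on the minus strand of hg19 so that the motif, in capitals, runs in its usual direction.
GATA2 at −3.48 kb, chr3:128215505-128215550: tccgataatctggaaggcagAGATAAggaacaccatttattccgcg
GATA2 at −39.9 kb, chr3:128251973-128252018: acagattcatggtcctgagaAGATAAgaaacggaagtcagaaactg
GATA2 at −55.7 kb, chr3:128267703-128267748: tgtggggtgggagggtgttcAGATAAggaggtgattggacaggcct
The last of these lies in the peak next to the 3-line site, with a fold of 5.35 and a −log10 q of 14.6, and the others had folds of 2.97 and 4.54.

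**Figure D4:**
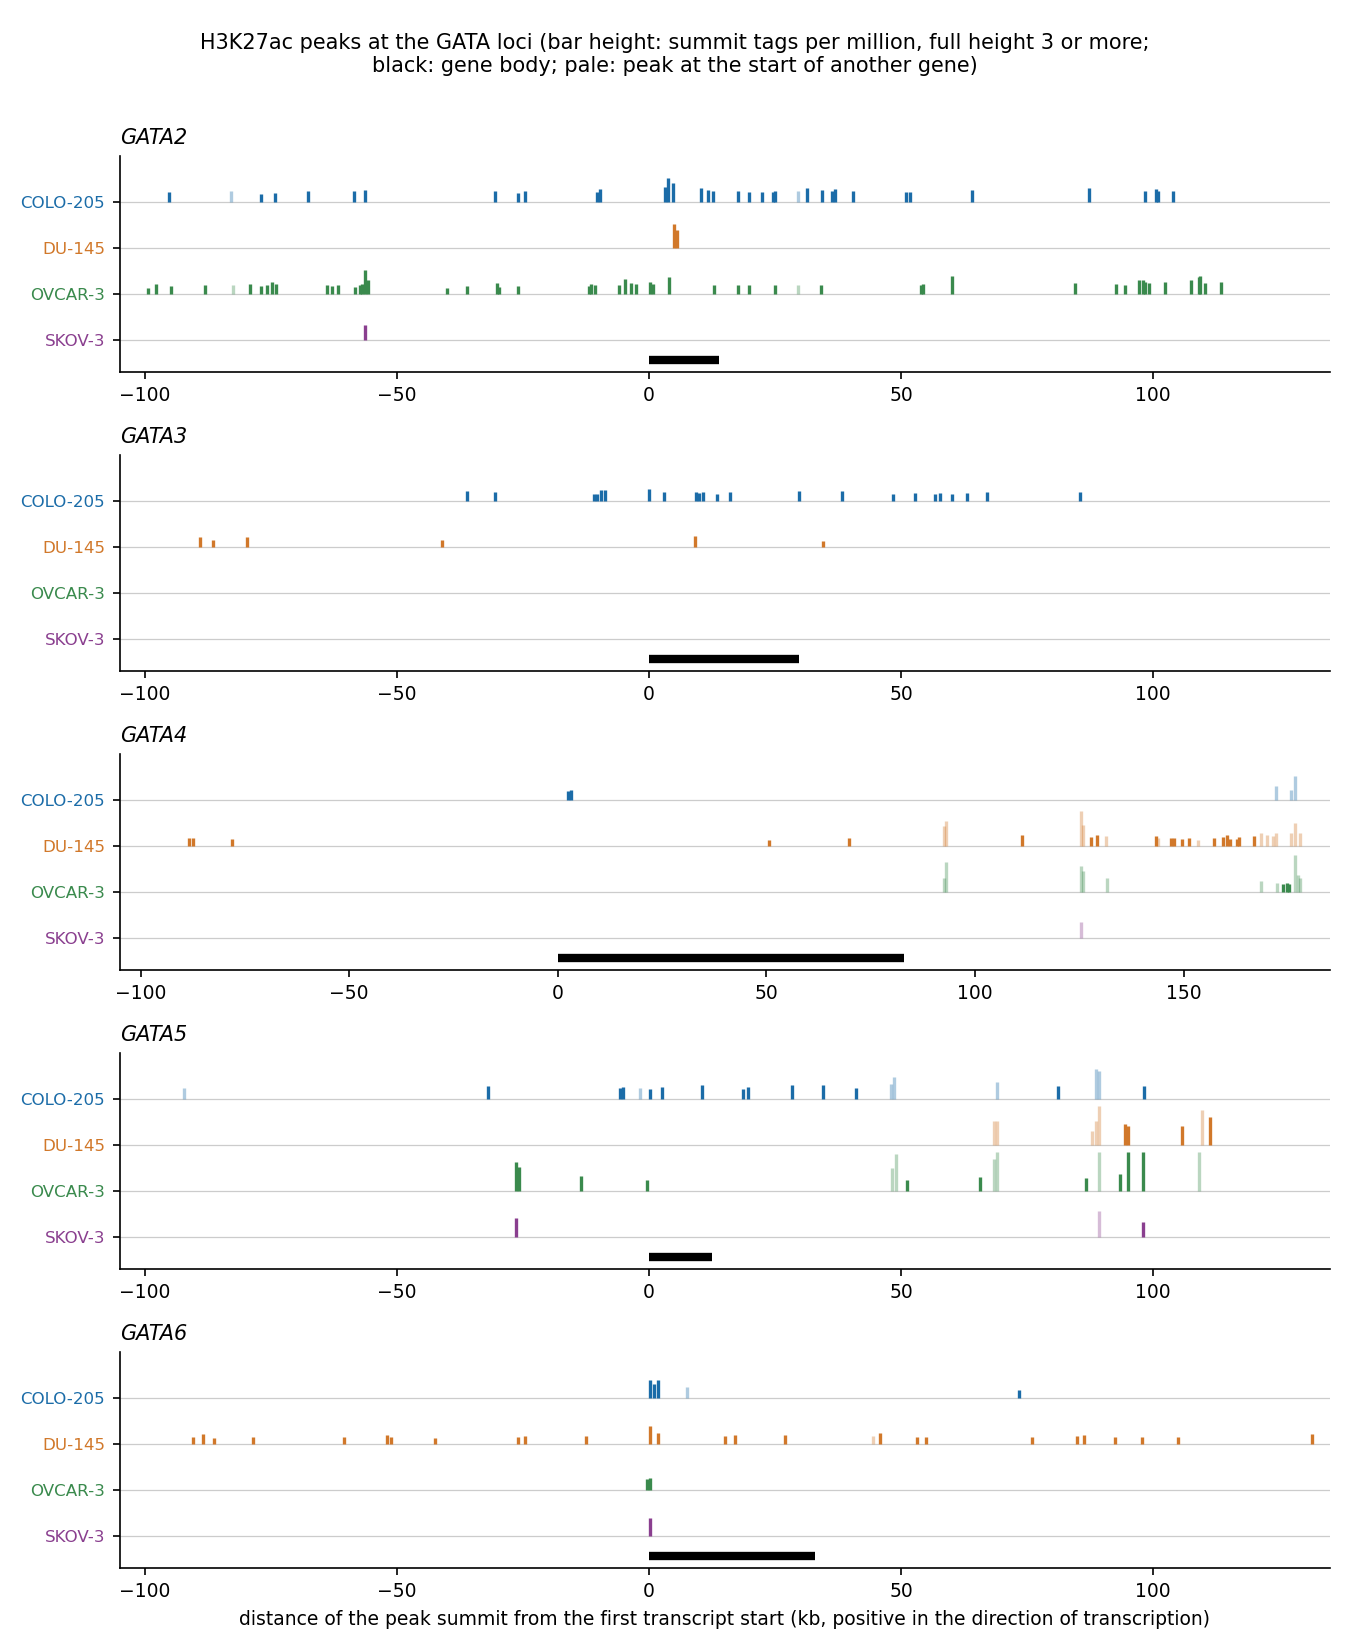
Peaks at the 5 GATA loci, placed by the distance of the summit from the first transcript start (horizontal axis, kb, positive in the direction of transcription), with 1 row per line. Bar height is the summit signal in RPM with full height at 3 or more, black bars are the gene bodies, and pale bars are peaks at the start of another gene. COLO-205 and OVCAR-3 fill the GATA2 locus, COLO-205 the GATA3 locus and DU-145 the GATA6 locus, and the row of SKOV-3 has 6 bars in all.

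GATA3, a regulator of T cells and of luminal epithelium, lies on chromosome 10 (chr10:8087341-8117161, plus strand, ENSG00000107485) with 5 annotated starts. COLO-205 had 4 promoter peaks and DU-145 1, and neither ovarian line had a peak of any kind within 100 kb of the gene. In COLO-205 the strongest promoter peak lay at the first start, with its summit 12 bp upstream, 0.940 RPM (0.624 to 1.36), a fold of 5.79 and a −log10 q of 12.2. The single peak of DU-145 lay 9.14 kb after the first start, within 1 kb of a start of GATA3-AS1, with 0.806 RPM (0.539 to 1.16), a fold of 3.96 and a −log10 q of 8.28. COLO-205 had a peak at the same place too, with 0.705 RPM (0.436 to 1.08), a fold of 3.41 and a −log10 q of 4.97, and the RPM intervals of both lines overlap.

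The 224 bases marked in both lines (chr10:8096340-8096563, hg19, plus strand, in an intron of GATA3) are shown as the only GATA3 sequence that more than 1 line shared.
GATA3 promoter: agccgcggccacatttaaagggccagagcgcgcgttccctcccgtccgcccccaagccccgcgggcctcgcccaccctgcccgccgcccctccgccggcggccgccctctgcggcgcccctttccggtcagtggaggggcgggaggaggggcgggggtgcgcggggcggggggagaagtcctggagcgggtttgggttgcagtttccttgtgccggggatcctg
It is 75.9% G and C with 26 CG dinucleotides, and AGATAA occurs on neither strand.

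Around GATA3, COLO-205 had 19 distal peaks, 6 upstream, 4 in the gene and 9 downstream, and DU-145 had 5. For all 24 the nearest start of a protein-coding gene was one of GATA3, and none overlapped a peak of another line, which is also the more common case among all peaks away from starts (15.1% of those in COLO-205 and 24.5% in DU-145 overlapped one). The ovarian lists held no peak here that could overlap. In COLO-205 19.5% of all genes had more distal peaks, and in DU-145 57.6%. At a −log10 q of 10 or more 3 were left in COLO-205 and 2 in DU-145, and none in either with equal peak numbers. The strongest was in COLO-205 at 38.3 kb, with a fold of 6.71 and a −log10 q of 12.1, and in DU-145 at −79.8 kb, with a fold of 6.73 and a −log10 q of 14.5, in an exon of TAF3. Chromosome 10 was near or above the median autosome in peak density in each line, between 1.09 times in COLO-205 and 1.53 times in DU-145, and was at 1.31 and 1.13 times in OVCAR-3 and SKOV-3, where no GATA3 peak was listed. The absence of listed peaks does not measure the signal, since values below the peak threshold are not in the lists.

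GATA5, an endoderm and endocardial factor, lies on chromosome 20 (chr20:61038553-61051051, minus strand, ENSG00000130700) with 1 annotated start. Its promoter was weakly marked in COLO-205, 217 bp inside the gene, at 0.805 RPM (0.516 to 1.20) with a fold of 3.56 and a −log10 q of 5.91. In OVCAR-3 the promoter peak lay 461 bp upstream of the start, at 0.819 (0.544 to 1.18) with a fold of 4.20 and a −log10 q of 8.81. The signals were alike in size, with a ratio of 1.02 (0.568 to 1.83), but the peaks did not overlap. No promoter peak was listed in DU-145 or SKOV-3.

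Stronger than the GATA5 promoter was an intergenic site at −26.4 kb that was marked in both ovarian lines and in neither of the others. In OVCAR-3 it reached 2.19 RPM (1.72 to 2.75) with a fold of 5.92 and a −log10 q of 32.0, and in SKOV-3 1.43 (0.977 to 2.02) with a fold of 3.77 and a −log10 q of 7.70. Their summits were 21 bp apart. In OVCAR-3 the signal was 2.68 times that of the GATA5 promoter peak (1.71 to 4.30), the only one of 8 such comparisons, each with the strongest distal peak away from other starts that had the member as nearest protein-coding start, whose interval lay above 1. A further OVCAR-3 peak beside it, at −25.8 kb, had a fold of 6.12 and a −log10 q of 27.6. Overlap such as that at −26.4 kb was common. Of all SKOV-3 peaks away from starts, 40.2% overlapped an OVCAR-3 peak, and of those on chromosome 20, 50.7% did.

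The 300 bases around these summits that both ovarian peaks cover (chr20:61077283-61077582, hg19, plus strand) are shown as the site that the ovarian lists share. AGATAA occurs on neither strand.
GATA5 upstream: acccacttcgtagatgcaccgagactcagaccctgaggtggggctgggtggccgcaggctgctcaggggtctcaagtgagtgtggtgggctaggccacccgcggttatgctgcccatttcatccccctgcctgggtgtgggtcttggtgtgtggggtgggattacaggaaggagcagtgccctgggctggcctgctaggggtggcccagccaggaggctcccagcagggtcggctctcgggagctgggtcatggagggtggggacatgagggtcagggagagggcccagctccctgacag
In COLO-205 the single GATA5 peak with AGATAA near the summit held it at −1.86 kb (chr20:61052888-61052933, plus strand) and had a −log10 q of 5.47.
GATA5 at −1.86 kb: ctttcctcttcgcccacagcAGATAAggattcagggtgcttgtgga

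The distal peaks of GATA5, 15 in OVCAR-3, 3 in SKOV-3, 19 in COLO-205 and 10 in DU-145 counting those above, lay mostly on the far side of the gene, toward RBBP8NL, CABLES2, RPS21 and LAMA5. Of these 47, 34 were nearer to a start of another protein-coding gene and 20 were at the start of another gene. In DU-145 all 10 were downstream and nearer to another gene. The highest fold at any GATA locus, 24.4 with a −log10 q of 244, was in OVCAR-3 in a peak of 5961 bp at 97.9 kb, where the start of RPS21, a ribosomal protein gene, was the nearest at 9004 bp. Chromosome 20 was at 2.94 times the median autosome in COLO-205 and 1.82 times in OVCAR-3, and of its 545 genes 71.7% had more distal peaks than GATA5 in COLO-205 and 32.7% in OVCAR-3. Of all genes 23.2% had more in OVCAR-3, 23.03% in SKOV-3, 41.6% in DU-145 and 19.5% in COLO-205. The part of this density in the counts was not tested.

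GATA4, a cardiac and gut factor, lies on chromosome 8 (chr8:11534468-11617511, plus strand, ENSG00000136574) with 8 annotated starts, and had no promoter peak in any line. The window around it held 53 distal peaks, 13 in OVCAR-3, 1 in SKOV-3, 34 in DU-145 and 5 in COLO-205. For 49 of these the nearest protein-coding start was that of another gene, and 28 were at the start of another gene, among them NEIL2, FDFT1 and CTSB. The other 4 were nearest to a GATA4 start, and all 4 were in its introns. In COLO-205 they lay 2.53 and 3.23 kb after the first start, with folds of 3.27 and 4.02 and a −log10 q of 4.65 and 6.49. In DU-145 they lay 50.5 and 69.8 kb after it, with folds of 4.09 and 4.19 and a −log10 q of 5.53 and 7.29. The 34 peaks of DU-145, a count exceeded by 10.3% of all genes, were therefore a feature of the window and for the most part not of the neighbourhood of GATA4. Leaving out peaks at other starts reduced them to 20. Chromosome 8 was below the median autosome in peak density in each line, from 0.418 times in COLO-205 to 0.829 times in DU-145.

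Over all 5 loci the windows of 100 kb held 80 distal peaks in OVCAR-3, 5 in SKOV-3, 74 in DU-145 and 77 in COLO-205, and the genes that carried them differed. The likeness of the 3 deep lists depends on the settings. Windows of 50 kb gave 32 in OVCAR-3, 24 in DU-145 and 54 in COLO-205, and a −log10 q of 10 or more gave 31, 31 and 11. At least 1 distal peak was found at 3 of the 5 genes in OVCAR-3, 3 in SKOV-3, 4 in DU-145 and 5 in COLO-205, beside 87.2%, 63.2%, 86.2% and 90.6% of all genes. The bases under peaks came to 47292 in OVCAR-3, 1826 in SKOV-3, 41822 in DU-145 and 28568 in COLO-205. Away from other starts, 14 of 64 COLO-205 peaks overlapped a peak of another line (21.9%, beside 15.1% of all such peaks), 4 of 53 in DU-145 (7.55%, beside 24.5%) and 17 of 62 in OVCAR-3 (27.4%, beside 27.7%). All 3 of SKOV-3 were shared, beside 64.4%. The DU-145 share was the lowest, and its distal peaks at GATA3 and GATA6 were in no other list. Of the 53 DU-145 peaks, 24 were at GATA6 and 5 at GATA3, where the ovarian lines listed no distal peak to overlap. The part of these absences in the low share was not tested.

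Neighbouring peaks were joined over gaps of up to 10 kb to describe clusters. The cluster that held the GATA2 promoter spanned 37.6 kb in COLO-205 with 17 peaks and 5936 marked bases, rank 578 of 31504 clusters of that line, and 46.4 kb in OVCAR-3 with 16 peaks and 4564 bases, rank 875 of 23649. In DU-145 the same promoter stood in a cluster of 2.03 kb with 2 peaks. The GATA3 promoter cluster of COLO-205 spanned 27.1 kb with 11 peaks (rank 1314) and that of GATA5 54.8 kb with 13 peaks (rank 1067). GATA6, although marked in all lines, stood in short clusters of 0.843 kb in OVCAR-3, 0.299 kb in SKOV-3, 2.54 kb in DU-145 and 7.69 kb in COLO-205 (rank 1785 of 31504, with 2416 marked bases). The order of members depends on the peak threshold: among COLO-205 peaks with a −log10 q of 10 or more, the GATA6 promoter cluster kept 2036 marked bases (rank 894 of 14621) and that of GATA2 1013 (rank 2621).

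The motif AGATAA was searched on both strands within 150 bp of each summit. It was found at 1 of 90 GATA-locus peaks in COLO-205 (1.11%, exact interval 0.0281% to 6.04%), beside 4.55% of all autosomal peaks of that line. In DU-145 it was found at 6 of 79 (7.59%, 2.84% to 15.8%), beside 6.29%, and in OVCAR-3 at 4 of 86 (4.65%, 1.28% to 11.5%), beside 5.68%. In SKOV-3 it was found at 1 of 6 (16.7%, 0.421% to 64.1%), beside 3.82%, and that peak is the GATA6 promoter. The peaks come from 5 loci and are not independent, so these intervals are too narrow, and no difference from all peaks is read from them.

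The antisense and divergent lncRNAs were marked in the same lines as their neighbours. GATA2-AS1 and GATA3-AS1 had promoter peaks in the lines that marked GATA2 and GATA3, and GATA6-AS1 had them in all 4 lines. These are peaks of the GATA promoters counted again, with a −log10 q of 20.8 for GATA2-AS1 in COLO-205 and 14.5 for GATA6-AS1 in DU-145.

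Of 6 genes for direct partners of GATA factors, 3 were marked in OVCAR-3, 1 in SKOV-3, 4 in DU-145 and 5 in COLO-205. ZFPM1 (FOG1), a cofactor that binds the GATA zinc finger, was marked in COLO-205 and DU-145, with a −log10 q of 28.2 and 30.4, and ZFPM2 (FOG2) in these and in OVCAR-3, with 9.46, 27.4 and 66.9. LDB1, a bridging protein of GATA complexes, was marked in all 4 lines, from a −log10 q of 6.09 in SKOV-3 to 129 in OVCAR-3. TAL1 was marked in COLO-205 alone and LYL1 in DU-145 alone. The values are not scaled between libraries, so they rank peaks within a line.

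Other genes with GATA-type zinc fingers were marked in most lines, 8 of 9 in OVCAR-3, 6 in SKOV-3, 7 in DU-145 and 8 in COLO-205. Marked in 1 line were TRPS1, a repressor that binds GATA sites, in OVCAR-3 (−log10 q 105), and ZGLP1 in COLO-205 (5.29). The other 7, among them GATAD2A, MTA1 and MTA2 of the NuRD corepressor complex, were marked in at least 3 lines.

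Of 12 endoderm and gut partners of GATA4 and GATA6, 5 were marked in OVCAR-3, 4 in SKOV-3, 5 in DU-145 and 8 in COLO-205, beside 61.5%, 32.4%, 62% and 52.9% of all genes. These shares of all genes apply to each list here, and nothing is read from lists this short. In COLO-205 HNF4A and CDX2, regulators of gut epithelium, were marked, with a −log10 q of 20.9 and 19.2, and neither was marked in another line. FOXA1 and KLF5 were marked in all 4 lines. SOX17, an endoderm and Mullerian factor, was marked in OVCAR-3 and SKOV-3 alone, with a −log10 q of 117 and 18.5. CDX1 and ONECUT2 were marked in no line.

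Of 8 luminal partners and targets of GATA3, 6 were marked in each of COLO-205, DU-145 and OVCAR-3 and 5 in SKOV-3, whereas GATA3 itself was marked in COLO-205 and DU-145. ESR1, the oestrogen receptor gene, was marked in SKOV-3 alone (−log10 q 14.6). Of 10 partners and targets of GATA2 in prostate, blood and endothelium, 5 were marked in DU-145, 3 in COLO-205, 2 in OVCAR-3 and none in SKOV-3. EDN1, which encodes the vasoconstrictor endothelin, was marked in DU-145 alone (−log10 q 9.23). Of 8 cardiac and mesoderm partners of GATA4 and GATA5, 3 were marked in OVCAR-3, 1 in SKOV-3, 3 in DU-145 and 4 in COLO-205, with NR2F2 marked in all 4 lines and NKX2-5 and HAND1 in none.

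For each member the genes most alike were those whose percentile rank of bases under peaks within 100 kb was nearest over the 4 lines, leaving out genes within 1 Mb of a member. For GATA2, at the 90.5 percentile in OVCAR-3, 39.4 in SKOV-3, 28.8 in DU-145 and 89.3 in COLO-205, they were H1-8 and PLXND1, both on chromosome 3, and CRB2. For GATA3 they were SNTG2, GLB1L2 and the unnamed gene ENSG00000284684, which share with it an absence of peaks in the ovarian lines, and for GATA4 ADRB3, FAM186A and FFAR4. For GATA5 they were TFDP2, EME1 and MRPL27, and for GATA6 FA2H, GRIK5 and PIP5K1B. The likeness rests on 4 values per gene.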

How the data were processed

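H3K27ac ChIP-seq peak lists of 4 cell lines, with 1 library each, were analysed. The authors mapped reads to hg19 with Bowtie2 2.1.0 and called narrow peaks per library with MACS2 2.1.0.20150603 at a q-value below 0.001. The deposited columns hold a score, the fold enrichment (a ratio to the local background), a −log10 p, a −log10 q and the summit offset, none made comparable across lines. By the methods, neighbours within 350 bp were joined, but closer pairs remain in the lists, which were used unmerged.

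Genes came from GENCODE v44 lifted to GRCh37 (the authors used v18), and sequences from the GRCh37 assembly, the build of the peaks. Summit pileup and background were solved from the fold and the −log10 p within 0.001, with fold as pileup + 1 over background + 1. This succeeded for at least 99.9% of peaks. ChIP tags per library were computed from the lowest background, the shortest peak (192 to 248 bp) and 2700000000 genome positions. Both the pileup recovery and the motif search were tested on simulated data. Peaks overlapped at 1 bp or more.

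Members and lists were chosen with earlier results of these data known. Named were the 5 members, list genes, the strongest promoter and distal peak of each member and line, and the 3 genes most alike. For GATA6 a comparison at the interval of all lines was added after the data were seen. Peaks with particular motif copies, the shared sites printed and the 4 intronic GATA4 peaks were named after their values were seen. Some listed genes were not matched among autosomal genes or are not reported here. The alternatives tried were a −log10 q minimum of 5 or 10, equal peak numbers, merging, other windows, starts, summit rules and gaps, other signal scales and another motif. Python 3.11.15, numpy 2.4.6, pandas 2.3.3, scipy 1.17.1 and matplotlib 3.10.9 were used.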

Additional observations from a re-analysis of the deposited data

How the results depend on the processing

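The genes with a promoter peak kept within 1.5 times their count under a −log10 q minimum of 5, merging, windows of 500 bp or 2 kb, protein-coding starts and summits in the window. The same number of peaks in every list left 2 in COLO-205, 0 in DU-145 and 0 in OVCAR-3, and a −log10 q minimum of 10 left 0 in SKOV-3 and 1 in OVCAR-3. The list genes with a promoter peak, 36 in COLO-205 and 32 in DU-145, came to 21 and 20 with equal peak numbers. For distal peaks in the order SKOV-3, OVCAR-3, DU-145 and COLO-205, a −log10 q minimum of 10 left 1, 31, 31 and 11, and equal numbers left 9, 8 and 3 in the last 3. Windows of 200 kb gave 22, 195, 141 and 126, and windows of 50 kb 2, 32, 24 and 54, with 3 in SKOV-3 without peaks at other starts. Bases under peaks came to 7173 in COLO-205, 25413 in DU-145 and 478 in SKOV-3 at a −log10 q minimum of 10, and with equal numbers to 3615 in COLO-205, 11625 in DU-145 and 23440 in OVCAR-3. In the order from SKOV-3 to COLO-205, windows of 200 kb gave 8080, 105013, 81957 and 44479 bases, and windows of 50 kb 852 in SKOV-3, 12569 in OVCAR-3 and 14811 in DU-145. Without peaks at other starts they were 1143, 27909 and 26785. The largest COLO-205 cluster by bases was that of GATA2 with 5936, and at a −log10 q minimum of 10 that of GATA6 with 2036, GATA2 then having 1013. The largest GATA2 cluster of OVCAR-3 went from 28403 bases to 4670 with gaps of up to 5 kb and to 2648 at a −log10 q minimum of 10. By construction these settings change the peaks or bases that can be counted. The log2 ratio of DU-145 over COLO-205 was 0.04 at both GATA2 and GATA6, −0.87 and −0.68 by fold in place of pileup, and −0.25 and −0.24 when scaled by the median promoter peak, so no direction is given for it. By fold, DU-145 over OVCAR-3 had a log2 ratio of −0.52 at GATA2 (0.53 by pileup) and 0.088 at GATA6 (0.79 by pileup). The cause was not tested. The motif GATAA gave 7.78% in COLO-205, beside 11.72% of all autosomal peaks, and 11.6% in OVCAR-3, beside 14.02%. Whole peaks gave 16.5% in DU-145 for AGATAA, beside 11.38% of all autosomal peaks, and 3.33% in COLO-205, beside 4.76%. Longer windows or shorter motifs match more often by construction. No paired analysis was possible because each line has a single library. Peaks under the threshold are not in the lists, so an absence is not a measured 0, and the part of depth in the absences was not tested.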

Other observations

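On the RPS21 and LAMA5 side of GATA5 lay the cluster with the most marked bases at any GATA locus in OVCAR-3, with 13 peaks and 35948 marked bases over 53.3 kb (rank 64 of 23649), and in DU-145 a cluster at the LAMA5 start with 7 peaks and 15155 bases over 20.3 kb (rank 248 of 22529). LAMA5 encodes a laminin chain of basement membranes. In OVCAR-3 a cluster of 83 peaks over 191 kb began 55.6 kb upstream of GATA2, with the peak next to the site shared by 3 lines, and ran on over the starts of RPN1 and RAB7A (28403 bases, rank 85). It depends on the joining, since with gaps of up to 5 kb the largest GATA2 cluster of OVCAR-3 had 4670 bases, on the other side of the gene. In DU-145 a cluster of 33 peaks over 58.9 kb at the starts of FDFT1 and CTSB, in the GATA4 window, had rank 200 (17889 bases). FDFT1 encodes squalene synthase and CTSB the protease cathepsin B. These clusters hold starts of other genes and no GATA promoter, and some run past the 100 kb windows. In COLO-205 the largest clusters by bases at GATA2, GATA3, GATA5 and GATA6 held the GATA promoter itself, except for GATA3 with gaps of up to 5 kb and for GATA5 at a −log10 q of 10 or more.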
